A study of Mus musculus with 10 samples.

Results

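The transcripts of Ryr1, Fkbp1a and Pvalb were followed in quadriceps femoris muscle of 5 inbred mouse strains. These 3 genes, of 6540 named on the array, were read by 5 of its 7697 features: 3 oligonucleotides for Ryr1 (listed under D21796, X78666 and X83932), 1 for Fkbp1a (NM_008019) and 1 for Pvalb (NM_013645). The genes were chosen by their measured differences between the strains, so their strain values are given as a description with standard errors and without a test. Every oligonucleotide with 1 of these symbols was kept, and the 3 of Ryr1 were not merged.

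Male mice of the strains CBA/CaOlaHsd (CBA), C57Bl/10ScSnOlaHsd (BL10), C57Bl/6JOlaHsd (BL6), DBA/2OlaHsd (DBA) and BALB/cOlaHsd (BALB) were delivered when 6 weeks old and used when 8 weeks old. All were wild type and none was treated. RNA of 2 animals per strain was labelled with Cy5 or Cy3 and hybridised in pairs of unlike strains to arrays that carry each 65-base oligonucleotide at 2 spots. The study asked how far genetic background alone changes muscle gene expression. In what follows an animal is named by its strain and number, and a ratio by its Cy5 animal over its Cy3 animal.

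Of the 10 arrays, 2 held identical values at every spot under the labels BL6 2 over CBA 1 and BALB 1 over CBA 2, and both were left out. The other 8 arrays join the animals in 2 chains. The smaller chain runs through CBA 1, BL10 1, BALB 2 and BL6 2, and the larger through CBA 2, BL10 2, DBA 1, BL6 1, DBA 2 and BALB 1. With these arrays CBA was present in Cy5 on 2 arrays, both against BL10, and on none in Cy3. A CBA level therefore rests on the dye effect fitted for the gene, and over the 7697 features the CBA level correlated at −0.58 with that dye effect across genes, against 0.49 for DBA, 0.39 for BALB, 0.18 for BL6 and −0.09 for BL10. Ratios hold no absolute level, so the presence of muscle markers could not be checked, and fewer cells of a type cannot be told apart from less RNA per cell.

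Skeletal muscle contracts when calcium leaves the sarcoplasmic reticulum, the calcium store that wraps each myofibril. Ryr1 encodes the ryanodine receptor of skeletal muscle, the channel through which this calcium leaves after the voltage sensor of the surface membrane has been triggered. Fkbp1a encodes the small immunophilin FKBP12, which binds this channel and stabilises its closed state, and Pvalb encodes parvalbumin, a soluble calcium buffer of fast fibres that speeds relaxation.

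The sequences before the start sites of the 3 genes are shown because the genes belong to 1 process and moved in different ways between the strains. RefSeq windows of GRCm38.p6 were found for all 3 genes, and the 250 bases before the start site are given 5′ to 3′ along the gene. Capitals mark matches, on either strand, to the E-box CANNTG, the TATA box TATAAA, the MEF2 box or the CArG box.
Ryr1, chr7:29125152-29125401, minus strand: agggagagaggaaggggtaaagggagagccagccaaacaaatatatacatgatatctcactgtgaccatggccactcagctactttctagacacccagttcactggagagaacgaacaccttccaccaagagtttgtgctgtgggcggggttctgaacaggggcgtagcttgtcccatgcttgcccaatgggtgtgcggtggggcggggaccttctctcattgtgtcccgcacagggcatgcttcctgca
Fkbp1a, chr2:151542233-151542482, plus strand: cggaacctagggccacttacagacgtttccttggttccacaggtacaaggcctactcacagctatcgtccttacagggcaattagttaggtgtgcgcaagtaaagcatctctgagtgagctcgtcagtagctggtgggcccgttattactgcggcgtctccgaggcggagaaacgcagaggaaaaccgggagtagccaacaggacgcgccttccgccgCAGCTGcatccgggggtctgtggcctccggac
Pvalb, chr15:78206401-78206650, minus strand: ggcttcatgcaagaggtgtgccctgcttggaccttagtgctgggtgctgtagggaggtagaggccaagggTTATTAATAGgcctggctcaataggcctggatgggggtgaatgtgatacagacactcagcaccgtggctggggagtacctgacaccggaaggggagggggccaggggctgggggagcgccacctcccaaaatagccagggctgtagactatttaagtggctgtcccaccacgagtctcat
The Ryr1 window held none of these letters. The Fkbp1a window held 1 E-box, whose last base lies 27 bases before the start site, and 66.2% of all 32851 such windows hold at least 1. The Pvalb window held 1 MEF2 box, a sequence bound by the muscle transcription factors of that name, ending 171 bases before the start site. At least 1 MEF2 box is found in 2.92% of all windows, a TATAAA in 12.4% and a CArG box in 1.47%. RefSeq lists another Pvalb start site downstream, whose window holds 1 E-box. In the same build Ryr1 spans chr7:29003340-29125179, Fkbp1a chr2:151542483-151561691 and Pvalb chr15:78191112-78206400. The Ryr1 window overlaps the end of that span, while the printed Fkbp1a and Pvalb windows adjoin theirs.

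Ryr1 was lowest in BL6 on 2 of its 3 oligonucleotides. With X83932 the log2 ratios were 1.58 for DBA 1 over BL6 1, 1.07 for BALB 2 over BL6 2 and −0.51 for BL6 1 over DBA 2. The BL6 animal was thus the lower one on each array that carried BL6, in either dye. The other ratios of X83932 were 0.74 for CBA 1 over BL10 1, 0.61 for CBA 2 over BL10 2, −0.14 for BL10 2 over DBA 1, −0.32 for BL10 1 over BALB 2 and −0.82 for DBA 2 over BALB 1. BL10 was below its partner on all 4 of its arrays. Its duplicate spots differed by at most 0.37.

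X78666 moved with X83932 at a smaller size. Its ratios were 1.37 for DBA 1 over BL6 1, 0.75 for BALB 2 over BL6 2 and −0.18 for BL6 1 over DBA 2. Without BL6 they were 0.55 and 0.59 for CBA over BL10, −0.08 for BL10 2 over DBA 1, 0.04 for BL10 1 over BALB 2 and −0.23 for DBA 2 over BALB 1. The spots of X78666 differed by at most 0.17, and over the 8 arrays the ratios of both oligonucleotides correlated at r = 0.98 as a description of values that share RNA and hybridisation.

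D21796 showed little of this. Its ratio for DBA 1 over BL6 1 was 0.39 as the mean of spots at 0.80 and −0.02, that of BALB 2 over BL6 2 was 0.36 and that of BL6 1 over DBA 2 was 0.08. The last of these is smaller than the fitted dye effect of 0.16, and with the dye effect taken off it was −0.09, against 0.23 for DBA 1 over BL6 1 and 0.20 for BALB 2 over BL6 2. BL6 was then the lower animal on all 3 arrays, by less than with the other oligonucleotides. The ratios without BL6 were 0.44 and 0.65 for CBA over BL10, −0.10 for BL10 2 over DBA 1, −0.09 for BL10 1 over BALB 2 and −0.07 for DBA 2 over BALB 1.

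**Figure D1:**
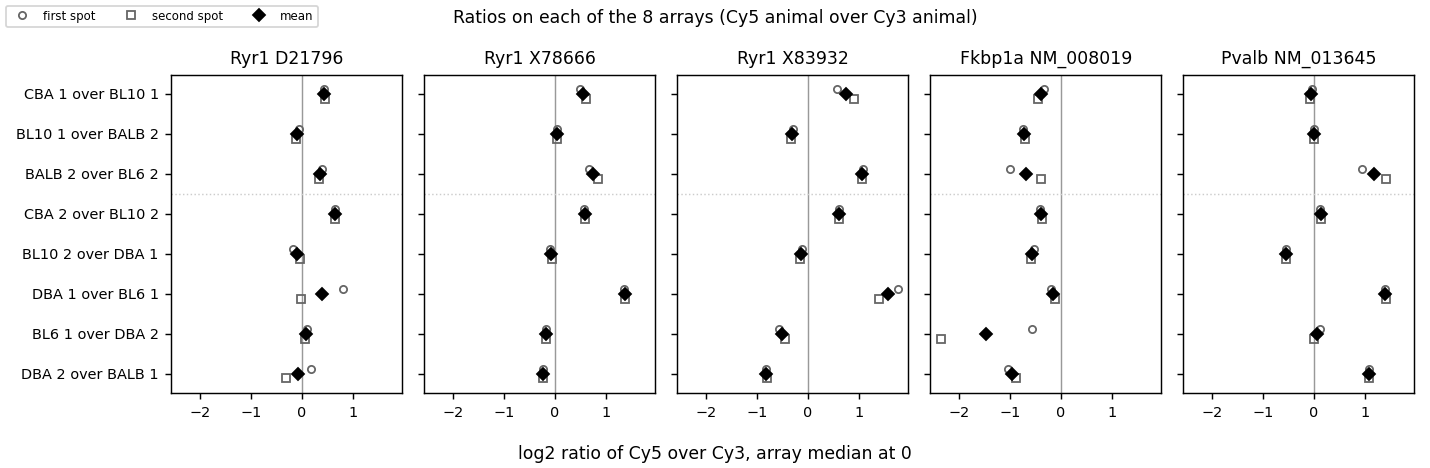
Log2 ratios of Cy5 over Cy3 (x axis) on the 8 arrays (y axis) for the 5 oligonucleotides, with both spots as open symbols and their mean as a diamond; the dotted line parts the 2 chains. Fkbp1a is below 0 on every array, and its spots on BL6 1 over DBA 2 lie at −0.57 and −2.36.

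Strain levels were fitted from these ratios with a dye term for each feature and are given as log2 distances from the average of all 5. For X83932 the order was BALB at 0.49 (SE 0.21), CBA at 0.42 (SE 0.32), DBA at 0.02 (SE 0.18), BL10 at −0.10 (SE 0.18) and BL6 at −0.83 (SE 0.22). BALB was above BL6 by 1.32 (SE 0.25), a 2.50-fold difference, and DBA was above BL6 by 0.85 (SE 0.25). BALB and CBA differed by 0.08 (SE 0.49), and DBA and BL10 by 0.12 (SE 0.31), both less than their errors. Without BALB 1 the difference between BALB and BL6 was 0.79, and without BALB 2 it was 2.40. Of all features, 1.44% had a larger range between the highest and the lowest strain.

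For X78666 the order of the strains was the same, with BALB at 0.28 (SE 0.18), CBA at 0.17 (SE 0.27), DBA at 0.13 (SE 0.15), BL10 at −0.10 (SE 0.15) and BL6 at −0.49 (SE 0.19). BALB was 1.70-fold above BL6, a log2 difference of 0.77 (SE 0.21), and the upper 4 strains lay within 0.37 of each other. The log2 difference was 0.34 without BALB 1 and 1.60 without BALB 2. The median range over all features was 0.45, and 14.8% of them had a larger range than X78666.

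For D21796 CBA was highest at 0.19 (SE 0.17) and BL10 lowest at −0.19 (SE 0.10), with BALB at 0.13 (SE 0.11), DBA at −0.0026 (SE 0.10) and BL6 at −0.13 (SE 0.12). Its range was 0.38 (SE 0.15), and 61.4% of all features had a larger one. The sequences of the oligonucleotides were not used here, so what part of the transcript each one reads was not tested.

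**Figure D2:**
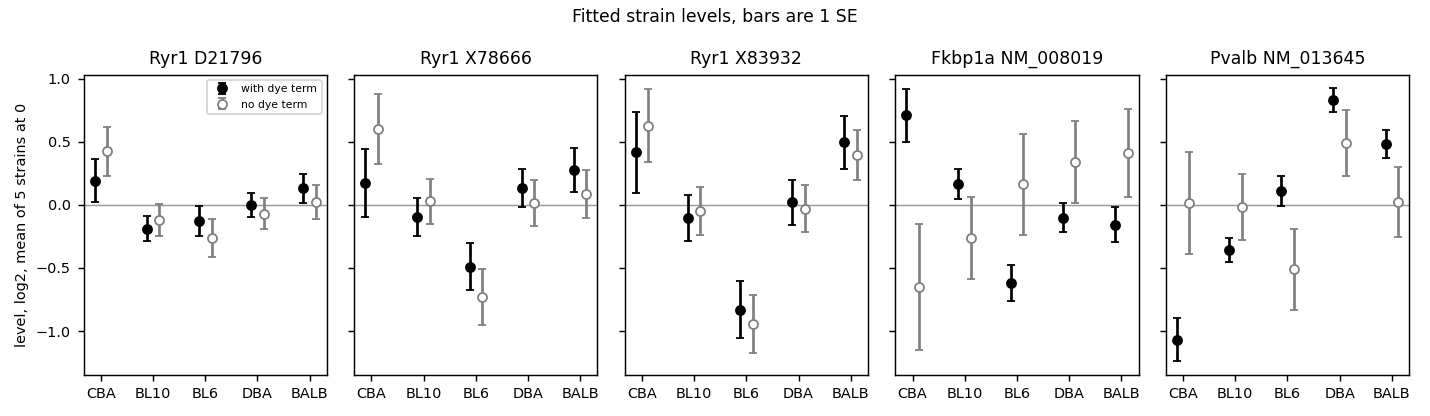
Fitted strain levels (y axis, log2, mean of the 5 strains at 0) with 1 SE for each oligonucleotide, with a dye term (filled) and without (open). BL6 is lowest with and without the dye term for Ryr1 X78666 and X83932, while the strain order of Fkbp1a turns and that of Pvalb changes.

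For Ryr1 X83932 and X78666 the low BL6 level did not depend on the dye term. Without it BL6 was at −0.94 (SE 0.23) for X83932 and at −0.73 (SE 0.22) for X78666, in each case the lowest strain, and with all 10 arrays it was at −0.57 and −0.51. The 2 BL6 animals, in different chains, were at −1.07 and −0.60 for X83932 relative to their own chains. The 2 DBA animals, which share a chain, were at 0.35 and −0.41. Levels of single animals rest on the fitted dye effect.

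An animal placed in Cy5 on 1 array and in Cy3 on another gives a difference from its 2 partners in which the dye effect cancels. BL6 1 was below the mean of DBA 1 and DBA 2 by this measure, at −1.05 for X83932 and −0.77 for X78666, where D21796 gave −0.16. Of all features, 0.221% had a larger difference there than X83932. This share is a description, since Ryr1 was chosen by strain differences in the same data. For X83932 DBA 1 was above the mean of BL6 1 and BL10 2 by 0.86, and BALB 2 above that of BL6 2 and BL10 1 by 0.70. BL10 was below the mean of its partners on all 3 oligonucleotides. Values were −0.26 to −0.53 for BL10 1 and −0.33 to −0.38 for BL10 2. In DBA 2, set against BALB 1 and BL6 1, the 3 oligonucleotides gave −0.15 to −0.03.

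**Figure D3:**
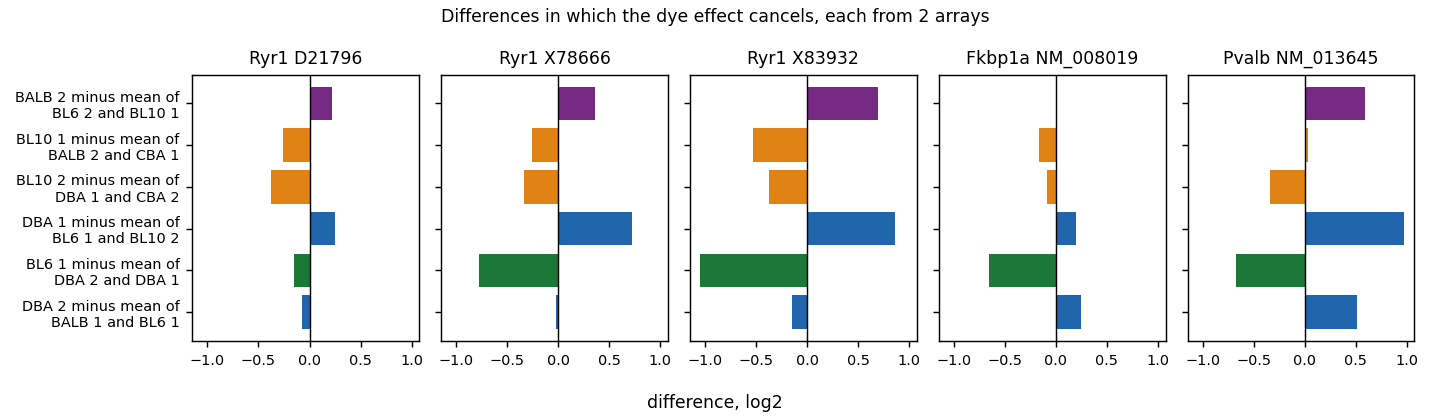
Difference of an animal from the mean of its 2 partners (x axis, log2), each from 1 array in Cy5 and 1 in Cy3 so that the dye effect cancels, for the 6 animals with such a pair (y axis, coloured by strain). BL6 1 lies below the mean of the DBA animals for Ryr1 X78666 and X83932, Fkbp1a and Pvalb. CBA has no bar as an animal of its own.

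Fkbp1a, the partner of the channel, had a negative ratio on all 8 arrays, whichever strain carried Cy5. The ratios were −0.39 and −0.38 for CBA over BL10, −0.72 for BL10 1 over BALB 2, −0.56 for BL10 2 over DBA 1, −0.16 for DBA 1 over BL6 1, −1.46 for BL6 1 over DBA 2, −0.69 for BALB 2 over BL6 2 and −0.97 for DBA 2 over BALB 1. The fitted dye effect was −0.93, and 3.55% of all features had a larger one in size. Fitted levels were 0.71 (SE 0.21) in CBA, 0.17 (SE 0.12) in BL10, −0.10 (SE 0.12) in DBA, −0.16 (SE 0.14) in BALB and −0.62 (SE 0.14) in BL6. CBA was thus 2.51-fold above BL6, a difference of 1.33 (SE 0.33), while DBA and BALB differed by 0.06 (SE 0.17).

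Neither end of the Fkbp1a order was steady. Without a dye term CBA was lowest at −0.65 (SE 0.50) and BALB highest at 0.41 (SE 0.35), and with all 10 arrays the 5 strains lay between −0.14 and 0.16. On BL6 1 over DBA 2 the spots read −0.57 and −2.36. Spots also differed on BALB 2 over BL6 2, where the first minus the second was −0.61. BL6 was at −0.16 with the first spots alone and at −1.11 with the second spots alone. The fitted dye effect was −0.694 with the first spots and −1.201 with the second. With the dye effect cancelled, BL6 1 was at −0.65 against the mean of the DBA animals, a value that contains the array BL6 1 over DBA 2. BALB 2 was at 0.015 against the mean of BL6 2 and BL10 1. Without BL6 1 the difference between CBA and BL6 was 0.59.

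Pvalb, the calcium buffer, had the widest range of the 5 features. Its ratios were 1.40 for DBA 1 over BL6 1, 1.18 for BALB 2 over BL6 2, 1.07 for DBA 2 over BALB 1 and −0.54 for BL10 2 over DBA 1. On BL6 1 over DBA 2 the ratio was 0.06, and the remaining ratios were −0.06 and 0.13 for CBA over BL10 and 0.00051 for BL10 1 over BALB 2. The fitted dye effect was 0.74, and the spots differed by at most 0.45. With the dye effect taken off, BL6 1 over DBA 2 was at −0.69, and DBA was above its partner on all 4 of its arrays.

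Fitted Pvalb levels were 0.83 (SE 0.09) in DBA, 0.48 (SE 0.11) in BALB, 0.11 (SE 0.12) in BL6, −0.36 (SE 0.10) in BL10 and −1.07 (SE 0.17) in CBA. DBA was 3.73-fold above CBA, a difference of 1.90 (SE 0.24), and 0.351% of all features had a larger range. Neighbours in this order were 0.35 to 0.71 apart with SEs of 0.13 to 0.19. Both CBA animals were low, at −0.87 and −1.21 in their chains, and both DBA animals high, at 0.69 and 0.72.

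For Pvalb both DBA animals and BALB 2 were above the mean of their partners also where the dye effect cancels. These values come from the same arrays as the fit. Where the 2 partners are of different strains, such a value does not order DBA and BALB, or BALB and BL6. DBA 1 was above the mean of BL6 1 and BL10 2 by 0.97. DBA 2 was above that of BALB 1 and BL6 1 by 0.51, and BALB 2 above that of BL6 2 and BL10 1 by 0.59. BL6 1 was below the mean of the DBA animals, at −0.67. BL10 1 was at 0.03 against the mean of BALB 2 and CBA 1, and BL10 2 at −0.34 against that of DBA 1 and CBA 2. The low CBA level rested on the dye term, and the BALB level changed with it. Without the term CBA was at 0.02 (SE 0.40), BALB at 0.02 (SE 0.28), DBA at 0.49 (SE 0.26) and BL6 lowest at −0.51 (SE 0.32). On the pair of identical arrays Pvalb read −1.47, as the mean of spots at −0.63 and −2.30, where the fit to the other 8 gives 1.92 for BL6 2 over CBA 1 and 2.30 for BALB 1 over CBA 2. With those arrays included as labelled, CBA was highest at 0.55 and BL6 lowest at −0.76, with BALB at −0.28.

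**Figure D4:**
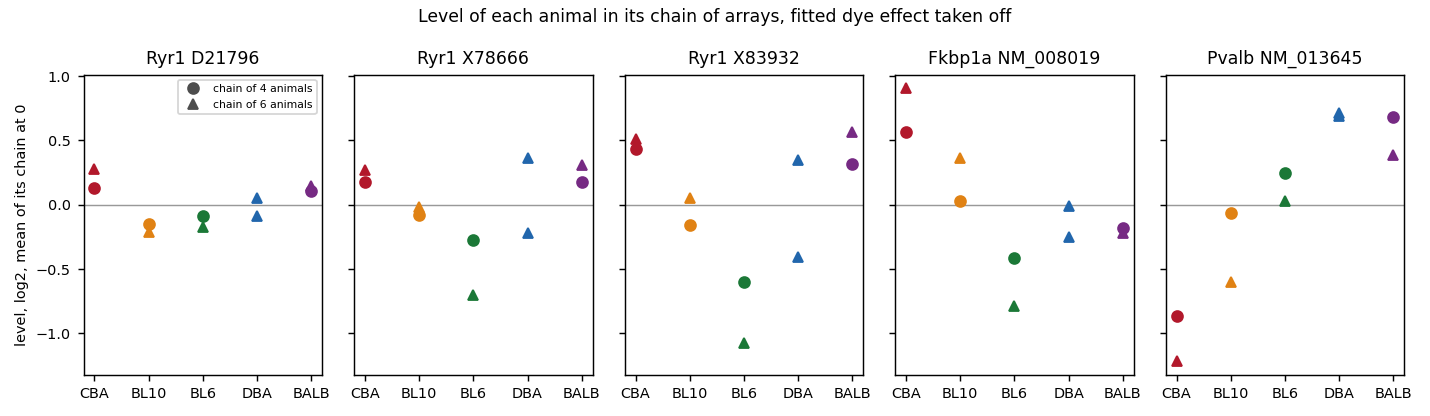
Level of each of the 10 animals (y axis, log2, mean of its own chain at 0) by strain, after the fitted dye effect was taken off; circles belong to the chain of 4 animals and triangles to that of 6. The BL6 animals are lowest for Ryr1 X83932 at −0.60 and −1.07, and the CBA animals lowest for Pvalb at −0.87 and −1.21.

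Markers of fibre type were followed beside Pvalb. None passed the FDR of 10% in limma's moderated F between strains, where 0.130% of all features did. An unadjusted p under 0.05 was reached by 3 of 6 fast fibre features and 1 of 7 slow fibre features, against 14.0% of all features. Over the 6 measured genes of 10 fast fibre markers, the median level was 0.25 in DBA, 0.27 in BALB, 0.03 in BL6, −0.10 in BL10 and −0.29 in CBA, and single genes ranged from −0.62 to 0.03 in CBA and from 0.07 to 0.69 in DBA. Over 7 of 10 slow fibre markers the medians were 0.14 in DBA, 0.09 in BALB, 0.16 in BL6, −0.03 in BL10 and −0.22 in CBA. The fast fibre gene Tnni2, at −0.08 in CBA and −0.06 in BALB, did not follow the order of Pvalb. Nor did Actn3, at 0.03 in CBA and 0.07 in DBA, or Tnnt3, lowest in BL6 at −0.60 and highest in BALB at 0.54. Casq1 and Tnnc2 had CBA lowest and DBA highest, as Pvalb did. In BL6 single fast fibre genes ranged from −0.60 to 0.16. Atp2a1, Casq1 and Tnnc2 of the fast list and Atp2a2, Casq2 and Tnnc1 of the slow list also belong to the calcium genes below. CBA levels of these markers rest on the fitted dye effect. It was 0.27 to 0.39 for the fast fibre features and −0.03 to 0.53 for the slow fibre features. The part of fibre type in the Pvalb and Ryr1 values was not tested.

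Other cell types were followed with marker lists as well. Nerve and Schwann cell markers had medians from −0.20 in CBA to 0.14 in DBA, and fat cell markers from −0.11 in CBA to 0.20 in BALB. Those of blood and leukocytes ran from −0.11 in BALB to 0.21 in CBA. In BL6 single fat cell markers ranged from −0.84 (Fabp4) to 0.19 (Lep), and single blood markers from −0.82 (Hba-a1) to 0.27 (Lyz2). Fabp4 and Hba-a1 were highest in BL10, at 0.76 and 1.15, with SEs of 0.96 and 0.77 for BL10 minus BL6. CBA levels of these lists also rest on the fitted dye effect. For connective tissue and vessels the median over 5 genes was lowest in BL6, at −0.35, against 0.14 in CBA. Single genes went both ways in BL6. Col3a1, Col1a1 and Dcn were at −1.0, −0.65 and −0.35, and the vessel markers Cdh5 and Pecam1 at 0.05 and 0.28. The part of these cell types in the low BL6 levels of Ryr1 was not tested.

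Of 79 further genes of calcium handling, 49 were measured by 54 features. None passed an FDR of 10% in limma's moderated F between strains, where 0.130% of all features did. At an unadjusted p under 0.05 there were 19 of 54 features, or 35.2%, against 14.0% of all features. Both counts moved with the animals in the fit, for the list and for the whole array. Each fit without 1 animal left 1 animal of its strain and 1 or 2 residual degrees of freedom. At the unadjusted p the count of the list rose in some of these fits and fell in others, as did that of all features. Counts from such fits are therefore not interpreted, and are listed at the end only as ranges. The fit with no dye term gave 4 features of the list with an unadjusted p under 0.05 (2.96% of all). CBA was the lowest strain for 42.6% of the 54 features, against 37.7% of all features, and BL6 for 25.9% against 19.6%. BALB was the highest for 37% against 20%. These shares are a description. CBA levels, here and in the roles below, rest on the fitted dye effect and had the largest median SE, at 0.19. Adjusted p-values given below are limma's over the 7697 features.

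Among the release channels, 3 of 7 features had an unadjusted p under 0.05. Itpr2, an inositol trisphosphate receptor, was at −0.50 in CBA and 0.42 in BALB with Z71173 (adjusted p = 0.215). With the other Itpr2 oligonucleotide CBA was at −0.06 and BALB at −0.04 (adjusted p = 0.699). Ryr3, another ryanodine receptor, was at 0.30 in BL6 with D38218 and at −0.24 in BL6 with D84237 (adjusted p = 0.326 and 0.323). The other Ryr3 oligonucleotide, AF111166, was at 0.28 in BL6 (adjusted p = 0.726), on the same side as D38218. Ryr2, the cardiac channel, had a range of 0.22.

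Of the partners of the channel, 4 of 8 features had such a p. Homer1, a scaffold protein, was at −0.68 in CBA and at 0.60 in BALB (adjusted p = 0.197). Jph2, a junctophilin that ties the reticulum to the surface membrane, ranged from −0.28 in BL10 to 0.50 in BALB (adjusted p = 0.267), and Calm3, a calmodulin gene, had −0.56 for CBA and 0.30 for BALB (adjusted p = 0.278). Fkbp1b, the close relative of Fkbp1a, had a range of 0.25 with BALB highest and BL6 lowest.

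The voltage sensor had 2 of 3 features with such a p. Its subunit genes Cacna2d1 and Cacng1 were lowest in CBA, at −0.43 and −0.34, and highest in BALB, at 0.54 and 0.37 (adjusted p = 0.197 and 0.223). Cacnb1 had a range of 0.20. None of the 4 pump features had an unadjusted p under 0.05. Atp2a1, the reticulum pump of fast fibres, was at −0.54 in CBA and 0.40 in BALB (adjusted p = 0.503), and Atp2a2, the slow fibre pump, at −0.53 in CBA and 0.34 in BL6 (adjusted p = 0.424), while Atp2a3 had a range of 0.25.

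Buffers within the reticulum had 4 of 8 features with such a p. Hrc, a histidine-rich protein that binds calcium there, was at −1.01 in BL6 and between −0.02 and 0.40 in the other strains (adjusted p = 0.263). Casq2, a calsequestrin, was also lowest in BL6, at −0.37, and highest in BL10 at 0.29 (adjusted p = 0.197), while Rcn2 was lowest in CBA at −0.28 (adjusted p = 0.334). The other cytosolic buffers, Calb1, Calb2 and S100g, had 0 of 3 features with such a p and ranges of 0.38 to 0.41, against 1.90 for Pvalb.

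For the exchange of calcium with the outside and the refilling of the stores, 2 of 6 features had such a p. Slc8a1, the sodium-calcium exchanger, was at 0.65 in CBA with NM_011406 (adjusted p = 0.263) and at −0.09 with AF108398, and the former had a dye effect of −0.78. Vdac1, a channel of the outer mitochondrial membrane, ranged from −0.51 in BL6 to 0.61 in BALB (adjusted p = 0.154). Trpc1, a cation channel, had a range of 0.74, Stim1, the calcium sensor of the reticulum, one of 0.12 and Atp2b2, a pump of the surface membrane, one of 0.25.

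Sensors and their targets had 4 of 15 such features. Camk2d, a calmodulin-dependent kinase, ranged from −0.56 in BL6 to 0.66 in BALB (adjusted p = 0.154), Rcan1, an inhibitor of calcineurin, from −0.42 in CBA to 0.39 in BL10 (adjusted p = 0.154), and Tnnc2, the troponin C of fast fibres, from −0.62 in CBA to 0.69 in DBA (adjusted p = 0.184). Tnnc2 was at −0.60 in BL6.

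**Figure D5:**
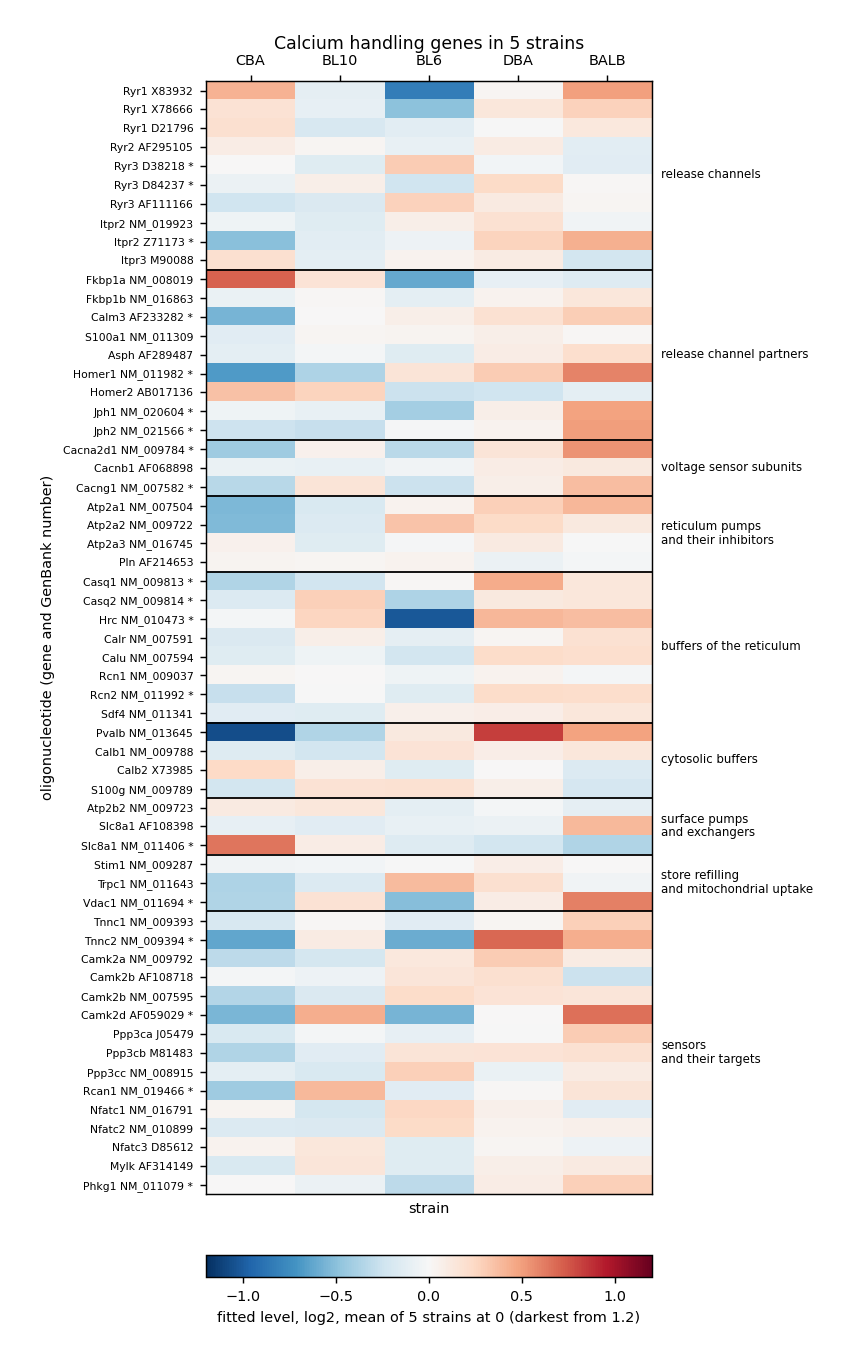
Fitted level (colour, log2, mean of the 5 strains at 0) in each strain (columns) of the calcium handling features (rows), grouped by role. A star marks an unadjusted limma p under 0.05. Stars were left off the Ryr1, Fkbp1a and Pvalb features whatever their p, since these were chosen by their strain differences. Hrc and Ryr1 X83932 are darkest blue in BL6, at −1.01 and −0.83, and Pvalb in CBA at −1.07.

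The features most like each member over the 8 arrays were found by the correlation of their ratios, which share arrays and dyes. Closest to Ryr1 X83932 were Rpl10 (r = 0.99), Sptb (r = 0.98) and Btg4 (r = 0.97), and closest to X78666 were Pde4dip (r = 0.98), Rpl10 (r = 0.97) and Erdr1 (r = 0.97). For D21796 they were Cd55b, Ero1a and Kcnj11, each at r = 0.96. Fkbp1a was closest to Fahd1 (r = 0.95), Rbms2 (r = 0.94) and Rpl8 (r = 0.94), and Pvalb to Nktr, Gdf11 and Camk4, each at r = 0.93. An r above 0.9 was reached by 76 features with X78666 and 70 with X83932, and by 12 or 13 with each of the others. Between the genes, Fkbp1a and X83932 correlated at 0.75 and Fkbp1a and Pvalb at 0.14.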

How the data were processed

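The authors extracted spots with GenePix Pro 3.0, subtracted local background and normalized with VSN. For 15552 spots on each of 10 arrays the authors deposited the natural log of the Cy5 to Cy3 ratio. That base and direction were inferred from the VSN method and the dyes in the labels. Duplicate spots were averaged to 7776 features and 80 copies of a control to 1, leaving 7697. Ratios were converted to log2 and centred on each array's median. Strain levels, a dye term and the animal as a random term (ratio of animal to array variance 0.446) were fitted to 8 arrays in limma 3.58.1 (R 4.3.3), with 3 residual degrees of freedom, and p-values were adjusted by Benjamini-Hochberg. Levels of single animals used MASS 7.3.60.0.1. Figures were drawn with matplotlib. Of these steps the strain fit was run on simulated ratios. They were drawn from its own fitted dye effects and variances, so they do not check the model itself. Gene names came from the array annotation updated through RefSeq: 6831 features had 1 symbol, 7 several and 938 none. In each role of the calcium list the 3 features with the smallest p were named, with close relatives of the members added after their values were seen. Members, lists and tests were chosen with earlier results of these data known. Alternatives covered centring, array spread, single spots, the dye term, the identical arrays, the variance model and leaving out each animal. Spot brightness and depth over background are not analysed here, and the number of arrays limits the precision.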

Additional observations from a re-analysis of the deposited data

How the results depend on the processing

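BALB minus BL6 for Ryr1 X83932 and X78666 kept its direction under every alternative run. CBA minus BL10 for Ryr1 D21796 was 0.62 with quantile normalization. CBA minus BL6 for Fkbp1a was −0.81 without the dye term, 0.88 with equal array spreads, 0.48 with the first spots, 2.25 with the second spots, 0.084 with all 10 arrays, and 0.13 or 0.48 with the shared values entered once as BL6 2 over CBA 1 or BALB 1 over CBA 2. DBA minus CBA for Pvalb was 0.47 without the dye term, 1.57 with equal spreads, 1.54 with quantile normalization, −0.22 with all 10 arrays, and 0.17 or −0.0073 with the shared values under either label. Calcium features past the FDR were 4 with equal spreads (2.55% of all features) and 3 with quantile normalization (1.73%), and those with an unadjusted p under 0.05 were 4 without the dye term (2.96% of all) and 9 with limma's ordinary test (9.51%). Causes were not tested.

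Leaving out 1 animal at a time gave 0.34 (without BALB 1) to 1.60 (without BALB 2) for X78666, 0.79 to 2.40 for X83932 without the same animals, 0.26 to 0.53 for D21796, 0.59 (without BL6 1) to 1.61 (without BL10 1) for Fkbp1a, 1.70 to 1.97 for Pvalb, 0 to 38 calcium features past the FDR (0.052% to 56.0% of all features) and 6 to 38 with an unadjusted p under 0.05 (5.31% to 53.8% of all). For both counts the upper end of the list came from the fit without BALB 2, and that of all features from the fit without DBA 1. No conclusion is drawn from these counts, since each fit left 1 animal in a strain. Without DBA 2 the strain levels and the dye effect could not be fitted together. The labels give no basis for pairing animals by number. With the number as a replicate block, the differences were 0.40 for D21796, 0.81 for X78666, 1.38 for X83932, 1.38 for Fkbp1a and 1.91 for Pvalb, with 2 calcium features past the FDR (0.741% of all) and 20 with an unadjusted p under 0.05 (16.5%).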
